A study of Homo sapiens with 2 samples.

Results

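The transcripts of the proteasome were measured by RNA-seq in TSU-Pr1, a bladder carcinoma line of human origin that is also labelled K12 and, by the series title, stably expresses KLF5, an epithelial transcription factor. Cultures received either a control siRNA (siCtrl) or one directed at the CDK2-binding protein gene CINP (siCINP), and total RNA was taken 48 h later. Both groups carry the KLF5 expression, and each holds 1 library. Members were chosen by gene symbol: the numbered genes PSMA to PSMG, without PSMB8 and PSMB9, and the genes POMP and SEM1. Of 48 such symbols in the reference, 46 were listed, out of 19052 genes in either table, and all 46 were listed in both libraries. PSMA8 and PSMB11, which are known from testis and thymus, were listed in neither.

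The proteasome is the protease of cytosol and nucleus that degrades proteins marked with ubiquitin chains. Its 20S core is a barrel of outer alpha rings, which gate the entrance, and inner beta rings, which hold the active sites. The 19S particle caps the barrel, with a ring of ATPases that unfolds substrates and non-ATPase subunits that bind and remove ubiquitin. Other activators (PSME genes) can take the place of the 19S particle, and dedicated chaperones build core and cap. Since the particles have a fixed subunit make-up, their genes are usually expressed together, and the transcription factor NFE2L1 is known to raise them when proteasome activity is short.

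The siCtrl library held 10365249 reads and the siCINP library 10314147. The targeted gene CINP went from 203 to 53 reads, which is a log2 ratio of -2.01 (95% interval -2.47 to -1.56). Of 6 epithelial markers, 5 were compared, with a median log2 ratio of 0.64 and 4 intervals above 0. KRT8 and KRT18 were abundant, at 29363 and 30507 reads and at 27036 and 29477, and the interval of KRT18 was 0.033 to 0.081. KRT7 (154 and 297), CDH1 (46 and 75) and KRT19 (20 and 44) were low and higher in siCINP, each with an interval above 0. EPCAM (4 and 15) also had an interval above 0 but did not reach the 20 reads needed to be compared. The deposited counts of KRT8, KRT18, KRT7, CDH1 and KRT19 were estimates that were not whole numbers, and their intervals leave out the error of that estimate. The part of these markers in the results below was not tested. Urothelial markers were low: of 10, 7 were listed, with 121 and 97 reads in sum, and UPK2, UPK3B and KRT20 were listed in neither library. Markers of leukocytes (89 and 88 reads), endothelium (46 and 75) and fibroblasts (160 and 184) were low as well. In a bulk sample, fewer cells of a type and less RNA per cell cannot be told apart. Each ratio of a gene or group below is siCINP over siCtrl after TMM scaling, a correction for library composition, unless stated otherwise. Its interval is an exact Clopper-Pearson interval that covers counting error only. Changes of the ratio of one gene or group to another use unscaled reads. Their intervals are those of a conditional odds ratio and cover counting error only as well. With 1 library per group there is no replicate check, no p-value is given, and intervals compare these libraries, not the conditions.

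Proteasome transcripts differed little between the libraries. The 46 members together had 61102 reads in siCtrl and 64335 in siCINP, which is 0.589% and 0.624% of all reads. Their summed log2 ratio was 0.006 (-0.010 to 0.022), and their median was -0.003, beside -0.013 over the 13076 genes that reached 20 reads in either library (the compared genes). All 46 members passed that minimum. Pairs of read counts below are in the order siCtrl, siCINP. No member was 2-fold higher or lower, whereas 1.69% of the compared genes passed this rule upward and 1.41% downward, with an interval that excluded 0. No member passed a 1.5-fold rule either, and 44 of 46 (95.7%) lay within 1.2-fold, compared with 60.3% of the compared genes and 68.2% of the 5329 genes with 500 or more reads. The quartiles of the members were -0.086 and 0.051, a width of 0.14, where the width was 0.40 over all compared genes and 0.33 over those with 500 or more reads. The median member had 1226.5 reads, as a mean of both libraries.

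**Figure D1:**
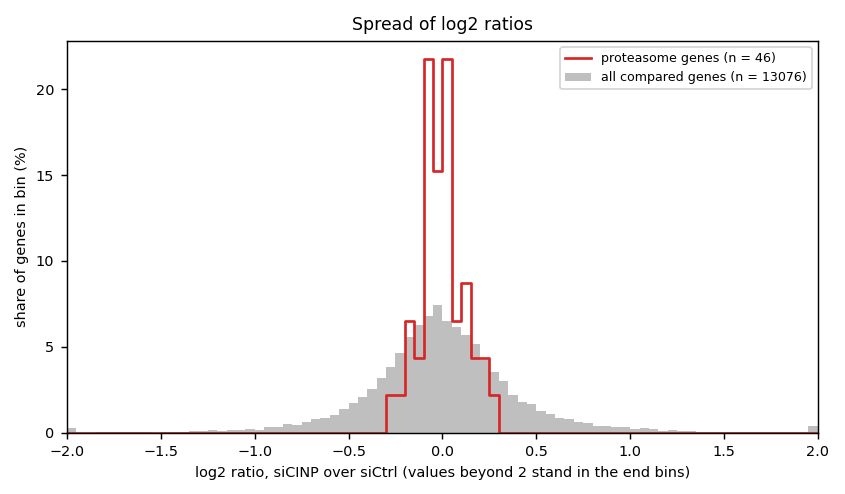
Share of genes (vertical axis, %) by log2 ratio of siCINP over siCtrl (horizontal axis), for 46 proteasome genes (red line) and 13076 compared genes (grey bars). The red line stays between -0.26 and 0.27, inside the wider grey distribution.

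The interval lay above 0 in 5 members (10.87%) and below 0 in 6 (13.04%), against 18.6% and 23.1% of all compared genes, so both shares were under the background. In the other 35 the interval spanned 0. The 5 above were PSMC3, PSMD13, PSMD7, PSMD11 and PSMB2, and the 6 below were PSMD9, PSMG2, PSMA2, PSME4, PSMB7 and PSMD8. This split depended on the scaling: with scaling to total counts, which moved every ratio up by 0.075, 13 intervals lay above 0 and 0 below. With that scaling the intervals of 3479 of the 13076 compared genes lay above 0 and those of 2179 below. The median was then 0.062 over the compared genes and 0.072 over the members. The ratio of one proteasome gene to another within a library needs no such scaling, and such ratios are given below wherever groups are compared.

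**Figure D2:**
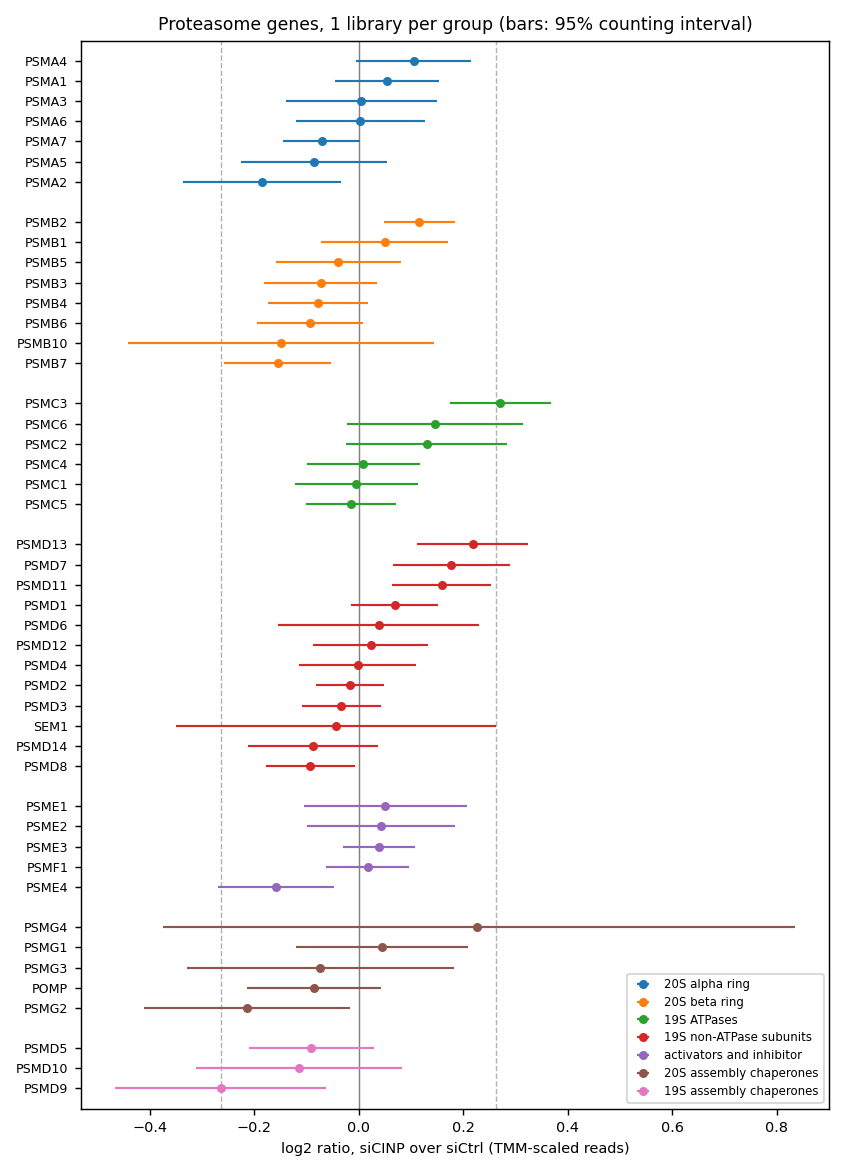
Log2 ratio of siCINP over siCtrl for each of 46 proteasome genes, by structural group, with bars for the 95% counting interval and dashed lines at 1.2-fold. PSMC3 at 0.27 and PSMD9 at -0.26 are the only points beyond the dashed lines, and PSMG4, with 44 and 54 reads, has the widest bar.

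In the outer ring of the core, the 7 alpha subunits had 9246 reads in siCtrl and 9567 in siCINP, and their median log2 ratio was 0.003. PSMA4 was highest in this ring with 1290 and 1454 reads (log2 ratio 0.10, -0.005 to 0.21). PSMA2 was lowest with 744 and 686 reads (-0.19, -0.34 to -0.03). PSMA7, the highest of all members by FPKM, had 2987 and 2981 reads (-0.071, -0.15 to 0.003). The other 4 lay between -0.085 and 0.054. Only the interval of PSMA2 excluded 0.

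In the inner ring, the 8 listed beta subunits had 12101 and 12517 reads and a median of -0.076. PSMB6, PSMB7 and PSMB5 carry the caspase-like, trypsin-like and chymotrypsin-like active sites. PSMB6 had 1615 and 1587 reads (log2 ratio -0.093, -0.19 to 0.008). PSMB7 had 1599 and 1505 (-0.16, -0.26 to -0.053), and PSMB5 had 1137 and 1160 (-0.039, -0.16 to 0.080). All 3 ratios were below 0 with TMM scaling, and only the interval of PSMB7 excluded 0. PSMB10, which replaces PSMB7 in the immunoproteasome of cytokine-treated cells, had 202 and 191 reads (-0.15, -0.44 to 0.14). Its FPKM, a level scaled for transcript length and library total, was 0.129 times that of PSMB7 in siCtrl and 0.130 times in siCINP, so the balance of these alternative subunits did not shift detectably (log2 change of the read ratio 0.007, -0.31 to 0.32). The structural subunit PSMB2 had 3325 and 3778 reads (0.12, 0.049 to 0.18), the only interval of the ring above 0, and its expected counts were fractional, as a counter gives where reads match several genes. Reads of beta over alpha subunits kept the same ratio in both libraries (change -0.03%, log2 interval -0.056 to 0.055).

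The 6 ATPases of the 19S base had 7341 reads in siCtrl and 8135 in siCINP. Their summed log2 ratio of 0.080 (0.034 to 0.13) and their median of 0.069 were the highest of the 7 groups with TMM scaling. PSMC3 had 1536 and 1943 reads, a log2 ratio of 0.27 (0.17 to 0.37) and the highest of all members, with whole expected counts (gene ID 5702). Its FPKM was 92.19 and 117.2. PSMC6 had 543 and 630 reads (0.15, -0.022 to 0.32) and PSMC2 had 654 and 750 (0.13, -0.024 to 0.28). PSMC1, PSMC4 and PSMC5 lay between -0.015 and 0.009. Only the interval of PSMC3 excluded 0, and from FPKM with the TMM factors PSMC2 was at 0.002, because the length deposited for it differed between the libraries.

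The 12 other structural subunits of the 19S particle had 19420 and 20765 reads and a median of 0.010. PSMD13, a lid subunit, had 1319 and 1608 reads (log2 ratio 0.22, 0.11 to 0.32). PSMD7, the lid partner of PSMD14, had 1194 and 1415 (0.18, 0.065 to 0.29), and the lid subunit PSMD11 had 1665 and 1949 (0.16, 0.064 to 0.25). These are the 3 intervals of the group above 0. PSMD14, the enzyme that cuts ubiquitin chains off substrates, had 1061 and 1047 reads (-0.087, -0.21 to 0.037). PSMD4, a ubiquitin receptor, had 1260 and 1319 reads (-0.002, -0.12 to 0.11), and the large base scaffolds PSMD1 and PSMD2 were at 0.069 and -0.017. PSMD8 had 2287 and 2248 reads (-0.093, -0.18 to -0.008), the only interval below 0. SEM1, the smallest lid subunit, had 178 and 181 reads (-0.044, -0.35 to 0.26).

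Set against the core, reads of the 18 subunits of the 19S particle were higher in siCINP by 4.39%. They numbered 26761 for 19S and 21347 for 20S in siCtrl, and 28900 and 22084 in siCINP, a log2 change of the ratio of 0.062 (0.026 to 0.098). The change was 0.099 (0.046 to 0.15) for the ATPases alone and 0.048 (0.008 to 0.087) for the non-ATPase subunits alone. Without PSMC3, a choice made after its value was seen, the 19S over 20S change was 0.047 (0.010 to 0.084). Without the members whose exons overlap a gene on the other strand, also chosen after the values were seen, it was 0.033 with an interval that spanned 0 (-0.006 to 0.073). In that setting the ATPases alone were at 0.16 (0.097 to 0.23) and the non-ATPase subunits at -0.003 (-0.046 to 0.039), so the higher value of the latter rested on overlapped members. Among the ATPases that setting removes PSMC1 and PSMC5, at -0.005 and -0.015, and keeps PSMC3, at 0.27, which raises the value of the rest. The change for the ATPases alone was not computed without PSMC3, so how far it rests on that gene was not tested. No scaling enters these ratios, and the intervals leave out variation between cultures.

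Of the alternative activators, PSME1 and PSME2, whose products form a mixed ring induced by interferon gamma, had 650 and 706 reads and 788 and 851 reads. Their log2 ratios were 0.051 (-0.11 to 0.21) and 0.043 (-0.099 to 0.19), and the FPKM of PSME1 over PSME2 was 0.661 in siCtrl and 0.664 in siCINP. PSME3, which forms the nuclear activator ring, had 3328 and 3582 reads (0.038, -0.030 to 0.11). PSME4, the large nuclear activator known as PA200, had 1377 and 1293 reads (-0.16, -0.27 to -0.048). The reads of PSME4 relative to PSME3 were thus lower in siCINP, with a log2 change of -0.20 (-0.33 to -0.066). PSMF1, described as an inhibitor of the core in vitro, had 2519 and 2673 reads (0.018, -0.062 to 0.097).

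The chaperones were fewer in reads. POMP, which guides maturation of the beta ring, had 993 and 981 reads (log2 ratio -0.086, -0.21 to 0.043). PSMG1 and PSMG2 form a pair that assembles the alpha ring: PSMG1 had 583 and 630 reads (0.044, -0.12 to 0.21) and PSMG2 had 447 and 404 (-0.21, -0.41 to -0.017). The log2 change of PSMG1 over PSMG2 was 0.26, with an interval of -0.001 to 0.52. The second pair, PSMG3 and PSMG4, had 257 and 256 reads and 44 and 54 reads, and the ratio of 0.23 for PSMG4 came with an interval of -0.37 to 0.84, too wide at this depth to show a direction.

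The 3 chaperones of the 19S base, PSMD5, PSMD9 and PSMD10, carry the names of subunits but leave the finished particle. All 3 log2 ratios were below 0 with each of the 4 scalings. PSMD9 (gene ID 5715) had 433 and 378 reads, the lowest ratio of all members (-0.26, -0.47 to -0.062). PSMD10, also known as the oncoprotein gankyrin, had 434 and 420 reads (-0.12, -0.31 to 0.082), and PSMD5 had 1141 and 1123 (-0.091, -0.21 to 0.029). Relative to the 18 structural subunits of the 19S particle, reads of these chaperones were lower in siCINP by a log2 change of -0.18 (-0.27 to -0.081), from 2008 against 26761 to 1921 against 28900. The change was -0.15 (-0.25 to -0.056) without members that overlap a gene on the other strand. None of the 3 chaperones has such an overlap, so that setting removes only 19S subunits and does not check the chaperone counts. For the 5 core chaperones relative to the core the change was -0.048 (-0.14 to 0.040). PSMD9 and PSMD5 had fractional expected counts, and exons of PSMD9 overlap genes on the same strand.

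Levels per length differed far more between members than between libraries. In siCtrl the members' FPKM ran from 7.13 for PSMG4 to 279.75 for PSMA7, with a median of 67.3, and in siCINP from 10.3 to 280.58 for the same genes, with a median of 72.5. The compared genes had median FPKM of 10.3 and 10.6, and 45 of 46 members lay above that median in each library. The 7 constitutive beta subunits were the most even of the core groups, with a highest to lowest ratio of FPKM of 2.81 in siCtrl and 2.46 in siCINP and a coefficient of variation of 35.8% and 32.3%. PSMB4, PSMB6 and PSMB3 led this ring at 189, 184 and 172 FPKM in siCtrl. The alpha ring spanned 13.2-fold in siCtrl, from PSMA5 at 21.15 to PSMA7, and 13.4-fold in siCINP. Among the ATPases, PSMC5 was highest at 151.3 and 157.36 FPKM and PSMC2 lowest at 25.3 and 26.7. FPKM of PSMA7 was 13.2 times that of PSMA5 in siCtrl and 13.4 times in siCINP, so this difference was alike in both libraries. It rests in part on the deposited lengths, 1050 bases for PSMA7 and 3833.91 for PSMA5 in siCtrl, where their reads were 2987 and 846. The assembly chaperones were lower as groups, at medians of 39.55 FPKM for the core and 26.66 for the 19S base in siCtrl, compared with 93.68 for the alpha and 131.15 for the beta ring.

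**Figure D3:**
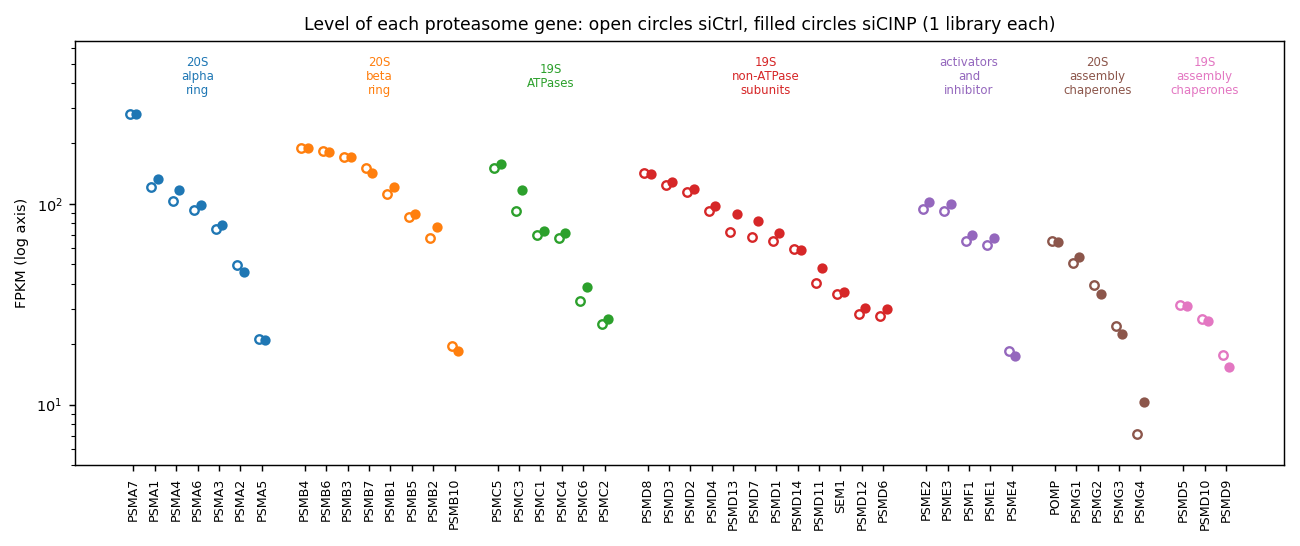
Deposited FPKM (log axis) of each of 46 proteasome genes in siCtrl (open circles) and siCINP (filled circles), 1 library each, ordered by level within each structural group. The circles of a gene lie close together, while genes within a group differ up to 13.2-fold in siCtrl, as for PSMA7 and PSMA5.

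The length deposited with each gene is fractional where several transcripts are listed and can differ between libraries. It moved by over 2% in 3 of 46 members (6.52%) and in 10.3% of compared genes. PSMC2 went from 2485.96 to 2712.73 bases, PSMG3 from 1022.53 to 1117.03 and PSMG4 from 621.98 to 536.54. For these genes the ratio of FPKM and the ratio of reads differ: PSMG4 had a log2 ratio of 0.53 from FPKM without a pseudocount and of 0.23 from reads.

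The exons of 11 members overlap those of a gene on the other strand in the GENCODE 29 annotation, and whether strand was used in counting is not stated, so reads cannot be told apart in those stretches. Of the members with an interval above 0, PSMD13, PSMD7 and PSMD11 are among these, and of those below 0, PSMA2, PSME4 and PSMG2. Without all 11, 2 intervals lay above 0 and 3 below. SIRT3, which shares 219 exonic bases with PSMD13, had 220 and 262 reads (log2 ratio 0.18, -0.080 to 0.45). CEP76, which shares 289 with PSMG2, had 142 and 123 (-0.28, -0.64 to 0.083), and both intervals spanned 0. NRDE2 shares the most, 3654 bases with PSMC1, and had 179 and 223 reads (0.25, -0.041 to 0.54), where PSMC1 was at -0.005. PSME4 shares 3 bases with ACYP2, which had 69 and 88 reads. In each of these pairs the member had more reads than its neighbour. The genes that overlap PSMD7 and PSMD11 were not found by name in either library, so they have no counts here. Exons of 6 members, PSMA1, PSMA2, PSMA6, PSMB10, PSMD9 and PSME2, also overlap a gene on the same strand, which strand could not separate, and PSMD9, the lowest member, shares 436 and 391 bases with such genes.

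Promoter sequences of 250 bases before to 50 after a start site were available from RefSeq (GRCh38.p14) for 40 of the 46 members, in 50 windows. The genes with the highest and lowest ratio, PSMC3 and PSMD9, are shown with PSMB3, whose window holds both motifs described next. PSMC3 lies at chr11:47426390-47426689 on the minus strand, PSMD9 at chr12:121888540-121888839 and PSMB3 at chr17:38752491-38752790, both on the plus strand. Capitals mark the antioxidant response element core TGACNNNGC, which NFE2L1 and NFE2L2 are known to bind with small MAF proteins, and the CCAAT box, each on either strand.
PSMC3: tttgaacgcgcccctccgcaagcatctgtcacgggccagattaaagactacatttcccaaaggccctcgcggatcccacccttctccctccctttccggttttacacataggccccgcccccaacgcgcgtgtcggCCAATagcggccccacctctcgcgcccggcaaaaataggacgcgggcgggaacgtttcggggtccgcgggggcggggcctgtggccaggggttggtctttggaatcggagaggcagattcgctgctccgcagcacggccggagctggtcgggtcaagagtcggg
PSMD9: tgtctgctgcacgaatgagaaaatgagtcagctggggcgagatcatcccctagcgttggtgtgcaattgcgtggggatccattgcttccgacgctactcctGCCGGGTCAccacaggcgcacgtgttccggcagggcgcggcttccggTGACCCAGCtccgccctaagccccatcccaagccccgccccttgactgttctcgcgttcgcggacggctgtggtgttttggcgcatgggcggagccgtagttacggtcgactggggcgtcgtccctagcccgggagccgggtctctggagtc
PSMB3: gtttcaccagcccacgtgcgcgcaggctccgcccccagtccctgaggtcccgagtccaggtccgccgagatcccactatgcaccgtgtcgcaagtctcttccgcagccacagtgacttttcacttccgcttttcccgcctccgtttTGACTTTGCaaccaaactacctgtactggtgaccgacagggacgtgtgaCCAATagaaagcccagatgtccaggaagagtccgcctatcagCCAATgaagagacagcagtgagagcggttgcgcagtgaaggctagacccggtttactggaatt

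The PSMC3 window holds 1 CCAAT box and no TGACNNNGC, the PSMD9 window holds 2 response elements, at -149 and -102 from the start, and the PSMB3 window has 1 at -104. The core TGACNNNGC was present in 15 of 40 members (37.5%), compared with 2619 of 14224 listed genes with a window (18.4%). The ETS core CCGGAAG was present in 15 of 40 (37.5%) compared with 18.8%, the CCAAT box in 19 of 40 (47.5%) compared with 42.0%, and the core of the nuclear respiratory factor NRF1 in 5 of 40 (12.5%) compared with 11.1%. The response element with 1 further base between its parts was present in 9 of 40 (22.5%) compared with 19.2%. Members with TGACNNNGC had a median log2 ratio of -0.015 (n = 15, -0.26 to 0.10) and members without it one of 0.005 (n = 25, -0.19 to 0.27), so the ranges overlap widely. Of those with it, 0 intervals lay above 0 and 3 below, and of those without it, 5 above and 2 below. The form with 1 further base went the other way, with 2 above and 0 below among carriers and 3 and 5 among the rest. For the ETS core the counts were 2 and 3 with it and 3 and 2 without. For the CCAAT box they were 3 and 2 with it and 2 and 3 without, and for NRF1 0 and 0 with it and 5 and 5 without. Over all compared genes the shares were 18.6% above and 23.1% below. With total-count scaling no interval of a member lay below 0, and a link of any of these motifs to the ratios was not tested.

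The 3' UTRs of the members were short, with a median of 381.5 bases against 1407 bases over 11717 compared genes with an annotated one. The heptamers TGCAAGA or GCAAGAA, which were singled out in an earlier analysis of these data after its values were seen, were present in 2 of 46 members (4.35%) and in 18.3% of the compared genes. The sites of the carriers are shown with the heptamer in capitals.
PSMD11: gggctttggggGCAAGAAagttggtgtgt
PSME3: tttggcattatTGCAAGAgcttgactcct
PSMD11 and PSME3, both on chromosome 17, were at 0.16 and 0.038, so neither carrier was lower in siCINP with TMM scaling. SEM1 was the only member with TCGGAGA or CGGAGAA (2.17%, compared with 4.2%), and its ratio was -0.044.

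Genes that work with the proteasome were taken from 7 lists. Their counts stand beside the shares over all compared genes, 18.6% above 0 and 23.1% below, and over those with 500 or more reads, as most listed genes have, 24.4% above and 37.4% below. Among 14 proteasome-bound factors the median log2 ratio was -0.007, with 3 intervals above 0 and 4 below. ADRM1, the ubiquitin receptor that completes the 19S base, had 3013 reads in siCtrl and 2983 in siCINP (-0.083, -0.16 to -0.009), close to the core subunits. UBE3C, a ligase that extends ubiquitin chains at the proteasome, had 1836 and 1380 (-0.48, -0.58 to -0.38). UBLCP1, a phosphatase of the 19S particle, was at 0.33 (0.18 to 0.48) with fractional counts, PITHD1 at 0.36 (0.14 to 0.58) and the ligase UBR4 at 0.23 (0.17 to 0.28).

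Of the 8 shuttle receptors, which carry ubiquitinated proteins to the proteasome or to autophagy, 3 intervals lay above 0 and 2 below, with a median of -0.011. RAD23B, which binds ubiquitin chains and the 19S particle, had 2718 and 3058 reads (0.10, 0.027 to 0.18). The autophagy receptors SQSTM1 and NBR1 were at -0.49 (-0.56 to -0.43) and 0.31 (0.22 to 0.39), and UBQLN4 was at -0.14 (-0.25 to -0.031).

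Of 6 ubiquitin and ubiquitin-activating genes, 4 intervals lay below 0 and 1 above, with a median of -0.14. UBB, a polyubiquitin gene, had 10251 and 8965 reads (-0.26, -0.30 to -0.22) with fractional counts. RPS27A, which encodes ubiquitin fused to a ribosomal protein, was at -0.14 (-0.21 to -0.067), and UBA1, the main activating enzyme, was at -0.14 (-0.19 to -0.085). For p97, the ATPase VCP that extracts proteins for degradation, and its cofactors, 8 of 16 intervals lay below 0 and 1 above, with a median of -0.089. VCP had 4432 and 4284 reads (-0.12, -0.18 to -0.056). YOD1, a deubiquitinase, was at -0.36 (-0.54 to -0.18) and DERL2, a membrane protein of the endoplasmic reticulum, at -0.28 (-0.43 to -0.13), and the cofactor NSFL1C was at -0.16 (-0.25 to -0.070). YOD1, DERL2 and the receptor SQSTM1 have TGCAAGA or GCAAGAA in the 3' UTR, as do UBR4 and DNAJA1, whose ratios were above 0. These are not all the carriers in the lists, and the intervals of others lay below 0 or spanned 0. Of the compared genes 18.3% carry one of these heptamers, and a link to the ratios was not tested.

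NFE2L1 had 1984 and 2782 reads, a log2 ratio of 0.42 (0.34 to 0.50), and its relative NFE2L2 had 1690 and 1265 (-0.49, -0.59 to -0.38). Neither carries TGCAAGA or GCAAGAA. BTRC, part of a ligase for NFE2L1, was at -0.41 (-0.59 to -0.22), and MAFG, a small MAF partner, at -0.31 (-0.48 to -0.14), and both carry one of the heptamers. NGLY1, the deglycosylase that activates the NFE2L1 protein, was at 0.24 (0.029 to 0.45). The protease DDI2, which cleaves that protein, also carries one of the heptamers and was at -0.005 (-0.26 to 0.25). A link of the heptamers to these ratios was not tested. Over the 11 genes of that list 3 intervals lay above 0 and 3 below, and the median was 0.008. Of 10 known NFE2L2 target genes, 5 intervals lay below 0 and 1 above, with a median of -0.29. NQO1, a quinone reductase, had 5072 and 3582 reads (-0.57, -0.63 to -0.51) with fractional counts. TXNRD1, thioredoxin reductase, was at -0.42 (-0.48 to -0.35). ME1, malic enzyme, had 236 and 463 reads (0.90, 0.68 to 1.14), the only interval of the list above 0. The proteasome members stayed between -0.26 and 0.27 beside these ratios.

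Cytosolic chaperones had a median of -0.017 over 16 genes, with 5 intervals above 0 and 4 below. The HSP90 genes HSP90AB1 and HSP90AA1 had log2 ratios of 0.33 (0.30 to 0.36) and 0.24 (0.21 to 0.27), and DNAJA1 and HSPH1, cochaperones of HSP70, were at 0.46 and 0.31. The heat-inducible HSPA1A and DNAJB1 were at -0.029 and -0.005, each with an interval that spanned 0, and HSPA8 was at -0.075 (-0.11 to -0.046). Counts of HSP90AB1, HSPH1 and HSPA1A were fractional.

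**Figure D4:**
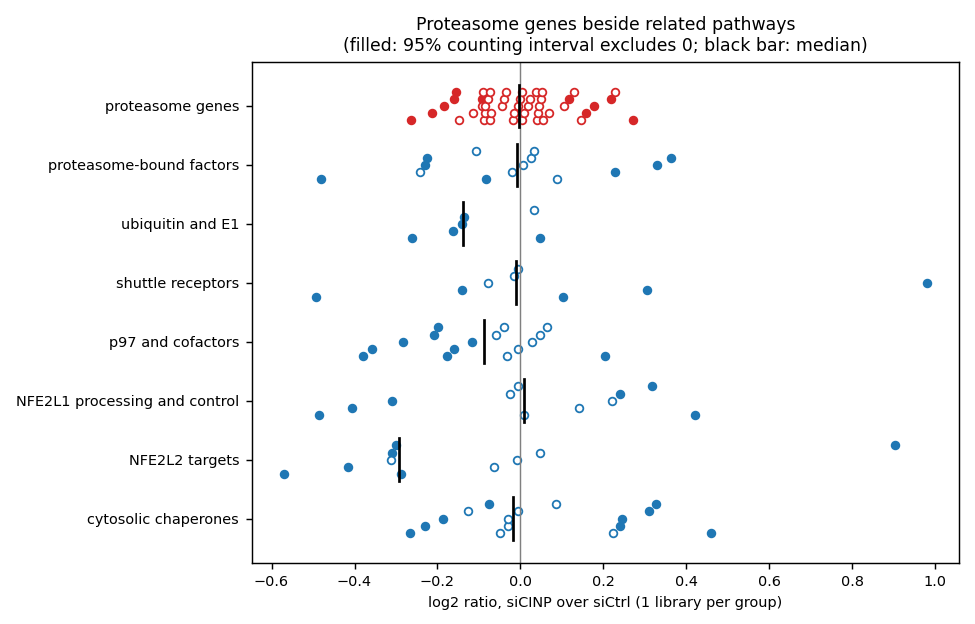
Log2 ratio of siCINP over siCtrl (horizontal axis) for proteasome genes (red) and 7 lists of related genes (blue), 1 library per group. Filled circles have an interval that excludes 0 and black bars are medians. Proteasome genes span -0.26 to 0.27, while NQO1 at -0.57 and ME1 at 0.90 are among the points outside that range.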

How the data were processed

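Total RNA of 2 TSU-Pr1 cultures, 1 per group, was sequenced. The authors deposited 1 table per library with expected counts, which are estimated reads per gene, not normalised and not always whole, per the file headers. The authors also deposited FPKM, read numbers relative to gene length and sequencing depth. The deposited length column is given in bases. The submitters' processing notes name HISAT, Bowtie2 and hg19, with no version. For the counting tool, its annotation and any use of strand, details were not given in the sources used here.

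Gene identifiers were matched to symbols by a GRCh38 reference (18971 of 19052). Expected counts were rounded, and the libraries were scaled by TMM factors of 0.974 and 1.03 (edgeR 4.0.16, R 4.3.3). Log2 ratios carry 95% Clopper-Pearson intervals (scipy 1.17.1). Changes of the ratio of one gene or group to another carry 95% intervals of the conditional odds ratio, from the same package. For a count of 0 the floor was 3 reads, or 0.297 CPM in siCtrl and 0.283 in siCINP. Genes with 20 or more reads in either library were compared. Counts within 0.005 of a whole number were called whole, as in 40 of 46 members. The 3' UTR of a gene was the longest among its basic protein-coding transcripts in GENCODE 29, and motifs were searched on both strands of promoters. The Clopper-Pearson intervals and the 2-fold rule were tested on simulated counts with counting error only. Genes there were unchanged or changed by more than any member, so variation between cultures and small changes were not tested. Members and lists were chosen with earlier results of these data known. Named genes are CINP, all members, and up to 4 genes per list whose nearer interval end lay farthest from 0, with others chosen after their values were seen: ADRM1, DDI2, NGLY1, RAD23B, VCP, HSPA1A, DNAJB1, HSPA8, the cell markers, and the overlapping genes SIRT3, CEP76, NRDE2 and ACYP2. Some genes that this rule takes from the lists are not reported here. Alternatives were other scalings (DESeq2 1.42.0 among them), FPKM with pseudocounts, other minimums and whole counts only.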

Additional observations from a re-analysis of the deposited data

How the results depend on the processing

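No paired analysis was possible because each group had 1 library. Most values of single members stayed inside the member's counting interval: of 276 alternative values, 264 did, 12 left it, and 0 reversed direction among called members. Many signs still depended on scaling: 22 ratios lay above 0 and 24 below with TMM, and 32 and 14 with total counts. Scaling moved the group values. With total counts the median was 0.072 for all members, 0.113 for activators and -0.040 for the 19S chaperones, and summed ratios were 0.082 for all members, 0.056 for the alpha ring, 0.056 for the beta ring, 0.155 for ATPases, 0.104 for non-ATPase subunits and 0.079 for activators. Intervals then lay above 0 in 13 members and below in 0, and in 3479 and 2179 of the compared genes. With upper quartile scaling these counts were 10 and 3 for members and 2969 and 2537 for compared genes. Medians were then 0.079 for activators and -0.074 for the 19S chaperones, and sums were 0.047 for all members, 0.022 for the beta ring and 0.070 for non-ATPase subunits. With DESeq2 scaling 8 member intervals lay above 0 and 4 below, beside 2697 and 2748 of compared genes. The activator median was then 0.060 and the sum of members 0.028. From FPKM, medians of members, activators and 19S chaperones were 0.071, 0.113 and -0.032 with a pseudocount of 0.1 and 0.071, 0.112 and -0.031 with 1. By their construction, all compared genes past the size rule, higher and lower, were 62 and 98 with 100 reads, 119 and 95 with whole counts, and 662 and 637 at 1.5-fold, with 339 higher without a minimum. Intervals of whole-count genes lay above 0 in 1453 and below in 1955. Members without overlap on the other strand had 2 above and 3 below, an alternative chosen after seeing the data. The 19S over 20S change was 0.033 without those members, where its interval (-0.006 to 0.073) no longer excluded 0 as that of 0.062 did. It was 0.054 without PSMA7 and 0.090 with whole counts, with intervals above 0. The spread of FPKM is given both as a highest to lowest ratio and as a coefficient of variation. Depth limits the least abundant members, above all PSMG4, SEM1 and PSMB10.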
